A study of Homo sapiens with 4 samples.

Results

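The genes described here encode the transcriptional output arm of the Hippo pathway: the coactivators YAP1 and WWTR1 (TAZ), the DNA-binding TEAD factors TEAD1, TEAD2, TEAD3 and TEAD4, and the direct targets CTGF, CYR61, AMOTL2 and ANKRD1. They were taken from the deposited expression table by gene name. All 10 were found, each in 1 row, among 57815 genes. The study compared MDA-MB-231, a triple-negative human breast cancer cell line, with LM2-4175, a subline isolated from MDA-MB-231 that metastasizes to the lung. Both lines were grown untreated in the same serum-containing medium, and total RNA of each was sequenced in 2 libraries. The table combines the libraries of a line in 1 FPKM (fragments per kilobase of transcript and unit of sequencing depth) with a lower and an upper bound. No SD, no test between replicates and no p-value could therefore be computed, and the total number of fragments behind a value is not in the table. LM2-4175 is a single derived subline, so a difference between the lines cannot be told apart from a difference between separately kept cultures.

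In the Hippo pathway a kinase cascade phosphorylates YAP and TAZ, which are then held in the cytoplasm by 14-3-3 proteins or degraded. Unphosphorylated YAP and TAZ enter the nucleus and bind TEAD factors, since they have no DNA-binding domain of their own. The complex switches on genes for matricellular proteins, cytoskeletal regulators and feedback inhibitors, and it is known for its part in the growth, invasion and mechanical sensing of breast cancer cells. Because the pathway is controlled by phosphorylation and localization, transcript levels of YAP1 and WWTR1 do not measure its activity.

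The TEAD recognition motif GGAATG, read on both strands (CATTCC on the other), was searched in the 250 bases before each RefSeq start site (build GRCh38.p14, whereas gene positions given elsewhere are on GRCh37). RefSeq promoter entries matched 7 of the 10 genes. TEAD1, TEAD4 and CYR61 had no entry. The windows of the 4 genes with a match are shown because they hold the letters that TEAD factors recognize. Capitals mark the motif, and each sequence runs 5′ to 3′ on the strand of the gene.
CTGF (CCN2), chr6:131951373-131951622, minus strand: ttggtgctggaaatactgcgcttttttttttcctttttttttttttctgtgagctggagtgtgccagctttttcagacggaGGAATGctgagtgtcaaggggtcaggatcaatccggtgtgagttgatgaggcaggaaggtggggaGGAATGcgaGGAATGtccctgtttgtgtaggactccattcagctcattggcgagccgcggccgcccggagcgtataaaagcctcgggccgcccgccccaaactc
ANKRD1, chr10:90921088-90921337, minus strand: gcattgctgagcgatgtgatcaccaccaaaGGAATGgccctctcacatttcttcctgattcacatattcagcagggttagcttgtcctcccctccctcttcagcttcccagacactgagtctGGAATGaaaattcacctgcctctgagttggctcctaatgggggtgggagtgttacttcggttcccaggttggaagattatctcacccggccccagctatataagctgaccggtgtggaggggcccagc
AMOTL2, chr3:134374448-134374697, minus strand: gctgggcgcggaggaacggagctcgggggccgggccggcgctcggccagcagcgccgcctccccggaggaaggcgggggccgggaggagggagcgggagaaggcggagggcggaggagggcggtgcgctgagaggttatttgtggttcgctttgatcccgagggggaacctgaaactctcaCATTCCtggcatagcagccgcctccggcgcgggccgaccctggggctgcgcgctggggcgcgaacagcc
YAP1, chr11:102110197-102110446, plus strand: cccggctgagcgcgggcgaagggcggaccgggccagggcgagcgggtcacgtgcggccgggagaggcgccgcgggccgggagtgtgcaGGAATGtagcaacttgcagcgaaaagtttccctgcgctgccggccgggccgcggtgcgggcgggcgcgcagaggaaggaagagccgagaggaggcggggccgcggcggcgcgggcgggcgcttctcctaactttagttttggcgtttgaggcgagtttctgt

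The CTGF window held 3 matches, at -169 to -164, -104 to -99 and -95 to -90 bases from the start site. Of 35116 promoter windows of the same length, 29 (0.0826%) held at least 3. ANKRD1 had 2 matches, at -220 to -215 and -128 to -123, a number that 0.94% of all windows reached or exceeded. AMOTL2 had 1 match on the opposite strand, at -69 to -64 from the more downstream of its 2 RefSeq start sites, and YAP1 had 1 at -162 to -157. The windows of WWTR1, TEAD2 and TEAD3 did not hold these letters. At least 1 match was thus found for 4 of 7 genes, compared with 14.3% of all 27305 genes with an entry. The AP-1 motif TGANTCA was found only in the ANKRD1 window among these genes, at -195 to -189, and 6.57% of all windows held it. The N allows any base, and the letters at ANKRD1 were TGATTCA. A match is a description of the letters in a window and not a site of binding.

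**Figure D1:**
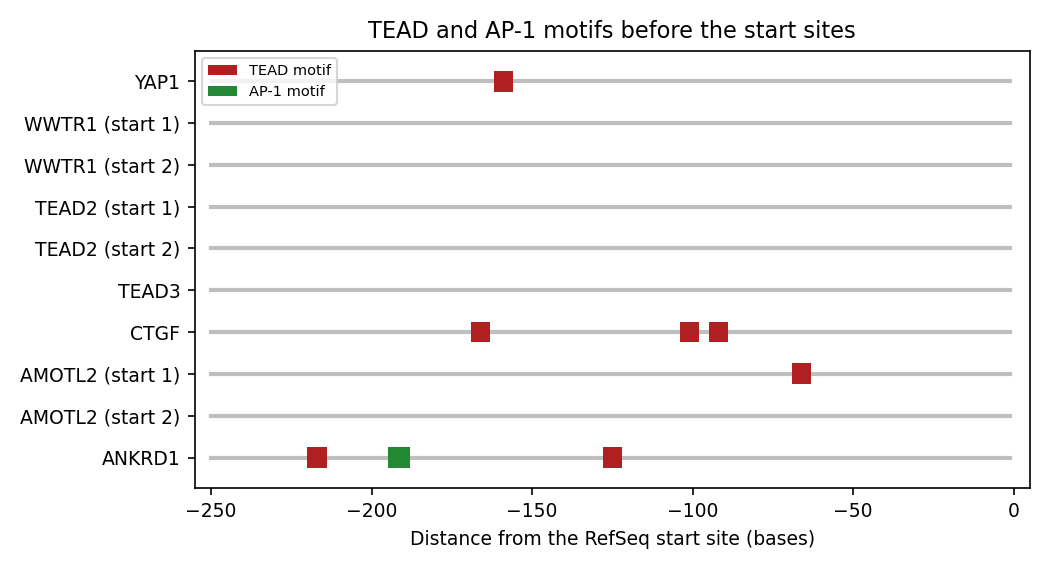
Positions of TEAD (red) and AP-1 (green) motif matches in the 250 bases before each RefSeq start site, with distance in bases on the horizontal axis and 1 line per start site. CTGF carries 3 TEAD matches, ANKRD1 carries 2 and 1 AP-1 match, and AMOTL2 and YAP1 carry 1 TEAD match each.

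All 10 genes were expressed in both cell lines, and none of them was called different. A gene was called where the ratio of FPKM + 1 was at least 1.5-fold in either direction and the bounds of the 2 lines did not overlap. The count of 0 of 10 compares with 9.27% of the 13911 genes tested, of which 4.67% were higher and 4.61% lower in LM2-4175. The genes tested were those with a status of OK in both lines and a mean of at least 0.5 FPKM, and all 10 passed this filter. By the fold alone, 0 of 10 passed compared with 22.1% of the genes tested, 10.3% higher and 11.8% lower. At a mean of at least 5 FPKM, which all 10 genes reached, 0 of 10 were called compared with 8.03%, of which 3.37% were higher and 4.65% lower. The ratio of LM2-4175 to MDA-MB-231 ran from 0.742 for TEAD3 to 1.45 for CYR61. The median log2 change was -0.09 for the 10 genes and -0.04 for all genes tested, and the median size of the change regardless of direction was 0.17 and 0.28.

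**Figure D2:**
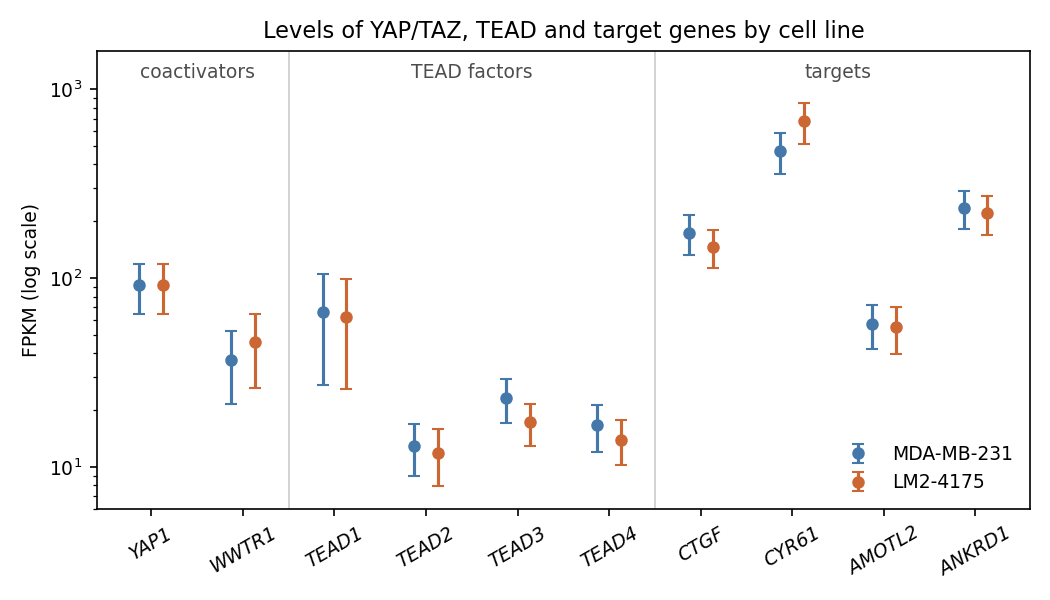
FPKM of each gene in MDA-MB-231 (blue) and LM2-4175 (orange) on a log axis, 1 value per cell line from 2 combined libraries. Vertical lines are the authors' lower and upper bounds, which overlap between the lines for all 10 genes.

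The coactivator YAP1 (ENSG00000137693) lies on the plus strand of chromosome 11, at 101981178 to 102104155 in GRCh37. Its level was 91.5 FPKM in the parental line MDA-MB-231, between bounds of 64.4 and 119. In the subline LM2-4175 its level was 91.7 FPKM, between 64.6 and 119. These values gave a ratio of 1.00, and 99.4% of the genes tested changed more in FPKM as deposited. That rank depends on the scaling, since the log2 change of YAP1 was 0.08 as TPM and 0.13 under quantile normalization. The bounds of YAP1 allow ratios from 0.544 to 1.84. YAP1 lay above 91.7% of the genes tested in MDA-MB-231 and above 92.6% in LM2-4175. WWTR1, which encodes the paralogous coactivator TAZ (ENSG00000018408, chromosome 3, 149235022 to 149454501, minus strand), reached 37 FPKM (21.5 to 52.5) in MDA-MB-231. Its level in LM2-4175 was 45.7 FPKM (26.4 to 65), a log2 change of 0.30 with overlapping bounds. YAP1 was the higher of the pair in both lines. The ratio of YAP1 to WWTR1 FPKM was 2.47 in MDA-MB-231 (1.20 to 3.75 when the bounds of both genes are combined in quadrature) and 2.01 in LM2-4175 (0.971 to 3.04). The ratio did not differ between the lines beyond these intervals. Antisense exons cover 10.1% of the YAP1 exon sequence and 9.05% of that of WWTR1, the latter from WWTR1-AS1, and whether counting used strand is not stated.

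The TEAD genes encode the DNA-binding partners of YAP and TAZ, which share a conserved DNA-binding domain. TEAD1 (chromosome 11, 12695968 to 12966284, plus strand) was the most abundant of them, with a level of 66.5 FPKM (27.2 to 106) in MDA-MB-231 against 62.5 FPKM (26 to 99) in LM2-4175. Its bounds were the widest of the 10 genes, at 59.1% and 58.4% of the value. TEAD3 (chromosome 6, 35441374 to 35464856, minus strand) reached 23.3 FPKM (17.1 to 29.4) in MDA-MB-231 against 17.3 FPKM (12.9 to 21.6) in LM2-4175. This log2 change of -0.41 was the most negative of the 10 genes, and the bounds overlapped. By their bounds, TEAD1 and TEAD3 overlapped in MDA-MB-231 and were apart in LM2-4175.
TEAD4 (chromosome 12, 3068496 to 3149842, plus strand) reached 16.6 FPKM (12 to 21.2) in the former against 14 FPKM (10.2 to 17.8) in the latter. TEAD2 (chromosome 19, 49843852 to 49865714, minus strand) was the lowest, with 12.9 FPKM (8.96 to 16.8) and 11.9 FPKM (7.91 to 15.9), and antisense exons of CD37 cover 10.7% of its exon sequence. All 4 TEAD genes thus had a slightly lower FPKM in LM2-4175, without any call, and under quantile normalization TEAD1 was above 0 at 0.03 on the log2 scale. As TPM, TEAD1 and TEAD2 were at -0.01 and -0.03. Of all 13911 genes tested, 7585 were below 0 as deposited, with a median of -0.04. For TEAD1, TEAD2 and TEAD4 the bounds in each line held the value in the other. The TEAD3 level in MDA-MB-231 lay above its upper bound in LM2-4175, although the bounds of the lines overlapped.

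TEAD1 made up 55.7% of the summed TEAD FPKM in MDA-MB-231 (40.6 to 70.9%) and 59.2% in LM2-4175 (44.5 to 73.8%). TEAD3 followed with 19.5% (11.8 to 27.2%) and 16.3% (9.69 to 23%). TEAD4 held 14% and 13.2%, and TEAD2 held 10.8% and 11.3%. The order of the 4 genes was the same in both lines, although the intervals of TEAD2, TEAD3 and TEAD4 overlapped each other within a line. Summed, the TEAD genes reached 119 FPKM (79.1 to 160) in MDA-MB-231 against 106 FPKM (68.5 to 143) in LM2-4175. YAP1 and WWTR1 together had 129 FPKM (97.3 to 160) and 137 FPKM (104 to 171), so the summed levels of coactivators and TEAD factors overlapped within each line.

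**Figure D3:**
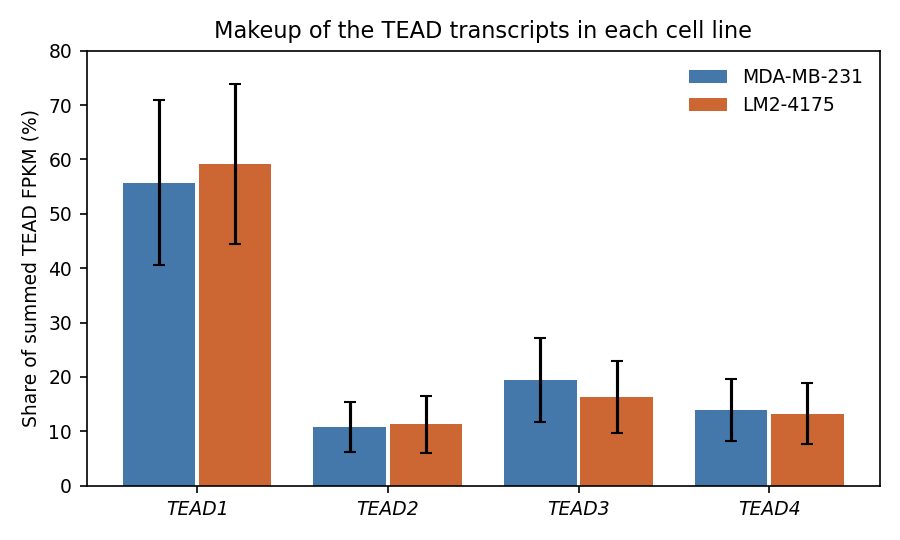
Share of each TEAD gene in the summed TEAD FPKM (percent) in MDA-MB-231 (blue) and LM2-4175 (orange), with error bars from the authors' bounds of the 4 genes combined in quadrature. TEAD1 holds 55.7% and 59.2%, and the error bars of the lines overlap for each gene.

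The direct targets were more abundant than the regulators, apart from AMOTL2. CYR61 (CCN1), which encodes a secreted matricellular protein that binds integrins (ENSG00000142871, chromosome 1, 86046444 to 86050272, plus strand), was the highest of the 10 genes in both lines. Its level was 471 FPKM (357 to 584) in MDA-MB-231 against 683 FPKM (515 to 851) in LM2-4175, and it ranked 181 and 121 among the 13911 genes tested. The ratio of 1.45 was the largest of the 10 genes, with a log2 change of 0.54. The difference of 212 FPKM had an interval of 9.63 to 415 FPKM when the bounds of the lines were combined in quadrature, an interval that excludes 0 although the bounds themselves overlapped. This looser rule, chosen after the data were seen, was passed by 1 of the 10 genes and by 16.1% of all genes tested, with 7.35% higher and 8.73% lower. Of the genes tested, 25.0% changed more than CYR61. Its exons are free of overlap with other genes.

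CTGF (CCN2), which encodes the related matricellular protein connective tissue growth factor (ENSG00000118523, chromosome 6, 132269316 to 132272512, minus strand), reached 174 FPKM (133 to 215) in MDA-MB-231. In LM2-4175 it reached 146 FPKM (113 to 180), a log2 change of -0.25 with overlapping bounds. Antisense exons of LINC01013 cover 11.9% of its exon sequence. ANKRD1, an ankyrin repeat protein of muscle and a widely used readout of YAP (chromosome 10, 92671853 to 92680844, minus strand), had 236 FPKM (182 to 291) and 222 FPKM (170 to 273).
AMOTL2, a member of the angiomotin family that binds YAP and acts as a feedback inhibitor (chromosome 3, 134074189 to 134094321, minus strand), had 57.2 FPKM (42.3 to 72) and 55.2 FPKM (39.6 to 70.7). The log2 changes of ANKRD1 and AMOTL2 were -0.09 and -0.05, and under quantile normalization they were 0.09 and 0.08. AMOTL2 was also above 0 at 0.03 as TPM. For 3 of the 4 targets the value in each line lay within the bounds in the other. CYR61 was the 1 target with a value in each line outside the bounds in the other.

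CYR61 and CTGF, the paralogous secreted targets, had changes of opposite sign. The ratio of CYR61 to CTGF FPKM was 2.70 in MDA-MB-231 (1.79 to 3.61) and 4.67 in LM2-4175 (3.10 to 6.23). The second was 1.73 times the first, with an interval of 0.907 to 2.55 that includes 1, so the shift was not separable from the width of the bounds. CYR61 against ANKRD1 gave 1.99 and 3.08, and CYR61 against AMOTL2 gave 8.23 and 12.4. These ratios were chosen after the values were seen, and the intervals of the 2 lines overlapped for each of them. Summed over the 4 targets, the level was 938 FPKM (805 to 1071) in MDA-MB-231 against 1106 FPKM (926 to 1286) in LM2-4175. The intervals of the sums overlapped, and of the 4 targets only CYR61 had a higher FPKM in LM2-4175 as deposited.

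**Figure D4:**
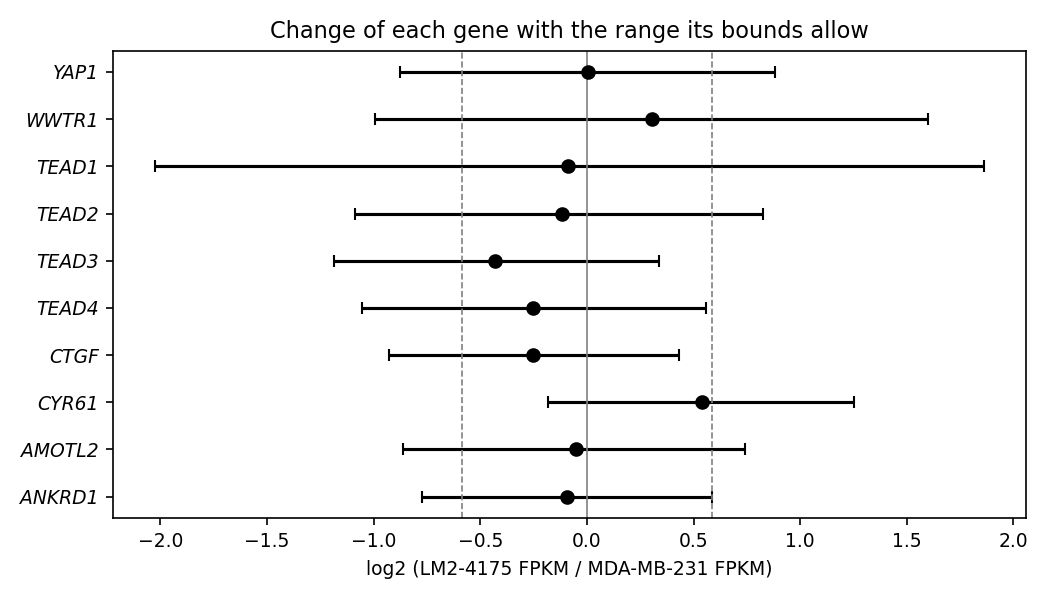
The log2 ratio of LM2-4175 to MDA-MB-231 FPKM for each gene (points), with horizontal lines for the range from lowest over highest to highest over lowest bound, and dashed lines at 1.5-fold. All 10 ranges include 0, CYR61 lies furthest to the right at a ratio of 1.45, and TEAD3 lies furthest to the left at 0.742.

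The order of the levels was the same in both cell lines: CYR61, ANKRD1, CTGF, YAP1, TEAD1, AMOTL2, WWTR1, TEAD3, TEAD4 and TEAD2. CYR61 was apart from ANKRD1 by its bounds in both lines. CTGF was apart from YAP1 in MDA-MB-231 only, and WWTR1 from TEAD3 in LM2-4175 only. All other neighbours in this order had overlapping bounds. Given the relative width of the bounds, LM2-4175 would have had to be higher by 1.60-fold for CTGF and by 3.83-fold for TEAD1 before the bounds of the lines came apart. For 8 of the 10 genes an observed ratio of 2-fold in either direction would have cleared them, and the exceptions were WWTR1 and TEAD1. A true change of 2-fold can be observed as smaller, and on simulated data most such changes were missed. Changes too small to part the bounds of a gene were not detectable by this rule, so the absence of calls does not show that the levels were equal.

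The regulators upstream were described by lists of pathway genes. Of 73 distinct genes, 63 were tested and 7 were called (11.1%), close to the 9.27% of all genes tested. None of the 7 genes of the Hippo kinase core was called, and their median log2 change was -0.09. Of its most abundant genes, MOB1A, which encodes a coactivator of the LATS kinases, had 63.6 FPKM (44.7 to 82.5) in MDA-MB-231 against 51.7 FPKM (36.1 to 67.4) in LM2-4175. STK4 (MST1), a kinase at the top of the cascade, had 24.2 FPKM (17.6 to 30.7) and 33.8 FPKM (24.7 to 43). LATS1 and LATS2, the kinases that phosphorylate YAP and TAZ and which are named here after their values were seen, had log2 changes of -0.09 and -0.04.

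Of 21 upstream inputs, 17 were tested and 2 were called lower, compared with 4.61% of all genes tested. WWC3, a relative of the scaffold KIBRA, fell from 26 FPKM (17.5 to 34.5) to 9.08 FPKM (6.14 to 12). FAT4, a giant cadherin, fell from 4.23 FPKM (3.22 to 5.24) to 2.47 FPKM (1.86 to 3.09), and this call was lost as TPM, after centring, at 2-fold and at a mean of 5 FPKM. NF2, which encodes the scaffold merlin and was also named after its values were seen, had 2.52 FPKM (1.58 to 3.46) and 3.70 FPKM (2.47 to 4.94). In the STRIPAK phosphatase complex, which dephosphorylates the MST kinases, 1 of 8 genes was called lower, against the same 4.61%. The scaffold subunit PPP2R1A fell from 158 FPKM (117 to 199) to 90.1 FPKM (65.6 to 115), a call that was lost as TPM, under quantile normalization and at 2-fold, and the catalytic subunit PPP2CA had 80.3 FPKM (22.9 to 138) and 74.5 FPKM (27.9 to 121). Exons of other genes overlap 7.16% of PPP2R1A and 27.7% of PPP2CA.

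The genes of 14-3-3 proteins and of YAP and TAZ turnover had the lowest median of the lists, at a log2 change of -0.36 over 11 genes, with 2 called lower compared with 4.61% of all genes tested. SFN (14-3-3 sigma) fell from 105 FPKM (81.4 to 129) to 56 FPKM (43 to 69). YWHAQ (14-3-3 theta) fell from 313 FPKM (239 to 387) to 188 FPKM (144 to 232), a call that was lost as TPM and under quantile normalization. Both calls were lost at 2-fold. All 7 of the 14-3-3 genes had a lower FPKM in LM2-4175 as deposited and as TPM, and under quantile normalization 6 of 7 did, with YWHAB above 0. Only SFN and YWHAQ of these were called, and 7585 of all 13911 genes tested were below 0 as deposited. Several 14-3-3 genes have processed pseudogenes, and how reads shared with such copies were counted is not stated.

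Among the vestigial-like cofactors, which compete with YAP for TEAD, VGLL1 and VGLL2 were under 1 FPKM in both lines and were not tested. VGLL4 had 16.7 FPKM (10.4 to 23) and 21.4 FPKM (12.9 to 29.8), and VGLL3 had 2.29 FPKM (0.907 to 3.67) and 2.12 FPKM (0.875 to 3.37), neither called. Antisense exons, from ATG7 among others, cover 23.8% of VGLL4.

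The further YAP and TAZ targets, 18 genes of a target signature known from other cancers, were all tested. Of these, 1 was called higher and 1 lower, 13 had a negative and 5 a positive log2 change, and the median was -0.23. Over all 13911 genes tested, 4.67% were called higher and 4.61% lower, 7585 were below 0, and the median was -0.04. The list median was -0.16 as TPM and -0.17 under quantile normalization, where that of all genes was 0.03 and -0.01. NUAK2, a kinase of the AMPK family, rose from 2.18 FPKM (1.51 to 2.85) to 4.23 FPKM (3.07 to 5.40). This call was lost at 2-fold and at a mean of 5 FPKM. IGFBP3, which encodes an insulin-like growth factor binding protein, fell from 39.1 FPKM (29.9 to 48.4) to 17.5 FPKM (13.2 to 21.8). Promoter entries matched 13 of the 18 genes, and 5 of these held the TEAD motif (AXL, FOXF2, NUAK2, PTPN14 and TGFB2), compared with 14.3% of all genes with an entry. The NUAK2 window held 2 matches. LATS2 and PTPN14 also stand in the kinase core and among the upstream inputs.
Of 8 relatives of the 4 targets, 3 were tested and none was called. AMOTL1, the angiomotin relative of AMOTL2, had 24.3 FPKM (17 to 31.7) and 20.1 FPKM (14.4 to 25.9). NOV (CCN3), of the same family as CYR61 and CTGF, had 3.27 FPKM (2.29 to 4.26) and 3.47 FPKM (2.36 to 4.59), far below both.

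**Figure D5:**
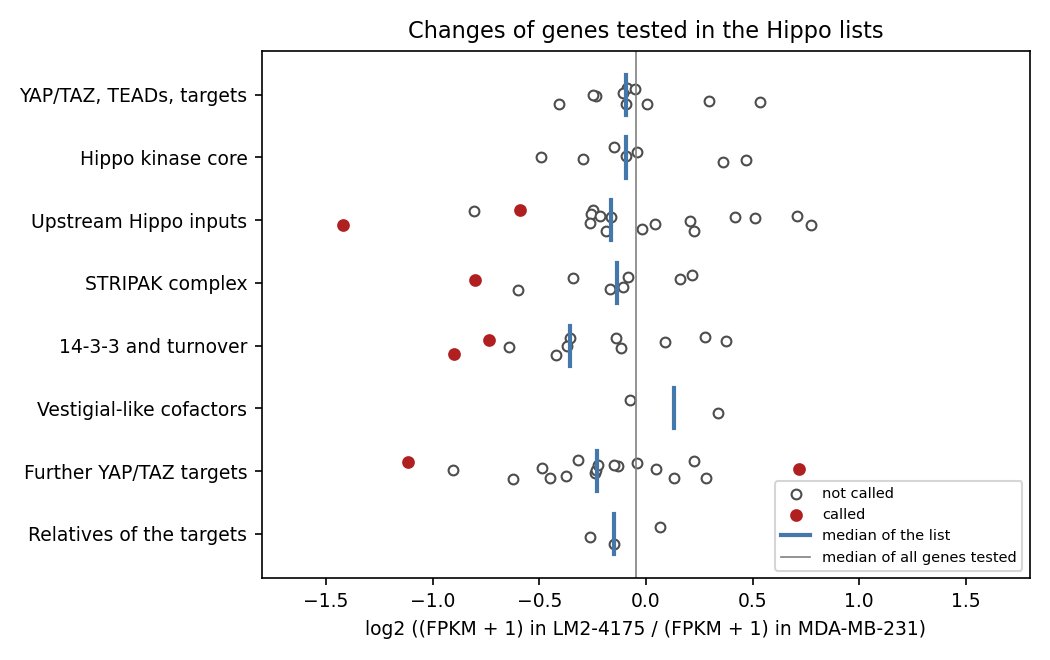
The log2 change of FPKM + 1 of each tested gene by list, with filled points for genes called, blue bars for the median of each list and a grey line for the median of all genes tested at -0.04. Vertical spread within a list only separates the points. None of the 10 YAP/TAZ, TEAD and target genes is called, and 6 of the 7 genes called in the other lists are lower, whereas the calls over all genes were 649 higher and 641 lower. Of the 6, PPP2R1A and YWHAQ are not called as TPM or under quantile normalization, and FAT4 is not called as TPM.

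Around each gene on its chromosome, the protein-coding genes tested within 1 Mb were examined. CYR61 had 9 such neighbours with a median log2 change of 0.47, close to its own 0.54, and 7 were above 0 with none called. TEAD3 had 22 neighbours with a median of -0.29, 21 of them below 0 and 5 called lower. Of all 13911 genes tested, 6326 were above 0 and 7585 below, with 4.67% called higher and 4.61% called lower. As TPM 2 and under quantile normalization 3 of the TEAD3 neighbours were called lower, and 1 neighbour of CYR61 was called higher under both. By contrast, 7 of the 9 neighbours of YAP1 were above 0 with a median of 0.48 and 2 called higher, whereas YAP1 itself was at 0.00. The neighbours of the other 7 genes had medians from -0.17 for TEAD2 to 0.21 for WWTR1. Below 0 were 8 of 9 for TEAD4 and 39 of 53 for TEAD2. Above 0 were 10 of 13 for WWTR1, 5 of 7 for TEAD1 and 5 of 6 for AMOTL2. CTGF had 5 of 9 and ANKRD1 4 of 7 above 0. Neighbours mostly of 1 sign were thus not particular to CYR61 and TEAD3, the 2 genes with the largest changes. What part such stretches have in the values of CYR61 and TEAD3 was not tested.

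The lines were checked against markers. Of the mesenchymal genes, VIM was abundant, with 1355 FPKM in MDA-MB-231 and 1768 FPKM in LM2-4175, whereas CDH2 had 0.221 and 0.0839 FPKM. Of the luminal markers, ESR1 and PGR were under 0.05 FPKM in both lines, and the 4 luminal genes summed to 38.1 and 25.2 FPKM, mostly ERBB2. Of the white blood cell markers, CD3E was listed at 0 in both lines, PTPRC had 0.0767 and 0.0263 FPKM, and CD14 had 1.17 and 1.75 FPKM. Of 5 epithelial markers, 3 (KRT8, KRT18 and EPCAM) were called lower, with sums of 1087 and 367 FPKM. Of 4 mesenchymal genes FN1 was called lower, from 314 to 117 FPKM, and ZEB1 had 26.1 and 40.5 FPKM without a call. The mesenchymal sums of 1695 and 1925 FPKM were mostly VIM. LUM and PDGFRB of 4 fibroblast genes were called lower, with sums of 10.9 and 2.15 FPKM that were mostly PDGFRB. PDGFRB fell from 9.44 to 1.91 FPKM. LUM fell from 1.34 to 0.178 FPKM, and its mean of 0.757 FPKM was little above the filter of 0.5. Its call thus rests on low values, and DCN and PDGFRA lay below the filter and were not tested. Over all genes tested, 4.61% were called lower. The part of these differences in the values of the YAP/TAZ, TEAD and target genes was not tested.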

How the data were processed

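RNA-seq was performed on 2 libraries each of MDA-MB-231 and LM2-4175, 4 in all. Per the methods of the study, the authors mapped reads to hg19 with TopHat 2.0 and quantified GENCODE 19 genes with Cufflinks. They called differentially expressed genes with Cuffdiff, which the submitters' processing notes also name. Per gene and line, the authors deposited 1 FPKM value with its confidence limits (low and high) and a status. How libraries were combined or normalized, whether strand was used and what the bounds cover are not given in the sources used here. The table holds no depth, library totals in the study's supplement were not used here, and these limits stand in for the precision. Replicates have no value of their own, so no group test was possible, and the labels do not say whether they are separate cultures.

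Log2 ratios of FPKM + 1 were calculated with pandas 2.3.3 and NumPy 2.4.6 (Python 3.11.15) and drawn with Matplotlib 3.10.9. Genes with status OK and a mean of at least 0.5 FPKM were tested, and called at 1.5-fold with bounds apart. Intervals of differences, sums, shares and ratios combine bounds in quadrature, which assumes that they are independent. On simulated data, with changes put into genes drawn from those tested and noise scaled to their bounds, the call missed most changes of 2-fold. It found larger changes more often and missed a part of them too. Positions and exon overlaps came from GENCODE 44 on GRCh37, which held 55535 of 57815 genes by Ensembl ID. Promoters came from RefSeq on GRCh38.p14.

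The members and lists were chosen with earlier results of these data known. All 10 members are named. Of each further list, the genes called are named, at most 5 each way, and where fewer than 2 were called the 2 with the highest mean FPKM. Other pseudocounts, filters, thresholds and scalings were tried. The bounds in quadrature were added after the data were seen. A marker gene of white blood cells is not reported here.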

Additional observations from a re-analysis of the deposited data

How the results depend on the processing

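No paired analysis was possible because the table holds 1 combined value per cell line, and for the same reason no replicate could be left out. With other pseudocounts, as TPM, after centring and under quantile normalization, the log2 change of each of the 10 genes moved by at most 0.18, less than its bounds allow. The other settings change only which genes are tested or called, and under all 13 settings 0 of the 10 were called lower. With the bounds combined in quadrature and no fold limit, 1 (CYR61) was called higher, and at 1.5-fold as well 0 were. CYR61 ranged from 0.54 to 0.69. Scaling to TPM gave 784 higher and 574 lower genes in all (57.7% higher), against 649 and 641 (50.3%) as deposited.

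Counts in the lists moved more. Among upstream inputs called lower, 1 remained (WWC3) at a mean of 5 FPKM, at 2-fold, as TPM and after centring, and the fold alone called 2 higher. STRIPAK genes called lower were 0 at 2-fold, as TPM and under quantile normalization, and 2 by the fold alone. Genes of 14-3-3 proteins and turnover called lower were 0 at 2-fold and 1 as TPM and under quantile normalization. Of the further targets, 0 were called higher at a mean of 5 FPKM and at 2-fold, and 3 were called lower by the fold alone and 2 by the bounds in quadrature, with or without the fold limit. The shares of the TEAD genes and the ratio of YAP1 to WWTR1 stayed within their intervals under quantile normalization, and TPM cannot change them, since it multiplies all genes of a line by 1 factor.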
